A study of Mus musculus with 16 samples.

Results

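The comparison set 4 arrays of Dnmt1c/chip common monocyte progenitors (cMoPs) against 4 arrays of control Dnmt1+/+ cMoPs, which are 8 of the 16 arrays of the series. All 22180 genes with a single symbol entered it, each through the probe set with the highest mean level. The other 8 arrays held macrophage and dendritic cell progenitors (MDPs) of the same genotypes, 4 arrays each, and shared the estimate of the spread. All cells came from the bone marrow of mice aged 8 to 12 weeks and passed a gate for high Kit and for CD115 that excluded lineage markers and CD11b, with Ly-6C present on cMoPs and absent on MDPs. The c/chip genotype combines a null allele (c) with a hypomorphic allele (chip) of Dnmt1. Both alleles are carried by every cell of the animal, so the reduction was not specific to monocyte progenitors. Titles of control cMoP arrays name both genotypes, so source name and genotype label decided their group. The labels do not say whether the arrays of a group came from separate animals, and p-values then measure only the spread between these samples. Values are log2 expression levels after robust multi-array averaging (RMA), so a difference of 1 is a 2-fold change.

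DNMT1 copies CpG methylation onto the new DNA strand at replication, which keeps genes that were silenced by methylation silent in dividing cells. In mouse somatic cells many germline genes, in particular those with CpG-rich promoters, are methylated and silent. Common monocyte progenitors are proliferating cells that give rise to monocytes, and methylation changes accompany their maturation.

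Dnmt1 was measured first because it checks the labels. Its levels were 9.80, 9.66, 9.80 and 9.86 on the control cMoP arrays and 8.82, 8.69, 9.0 and 8.98 on the c/chip cMoP arrays. Every c/chip array lay below every control array. The mean fell from 9.78 ± 0.09 (SD, n = 4) to 8.87 ± 0.15 (SD, n = 4), a log2 difference of −0.91 (SE 0.137, 1.87-fold lower, limma adjusted p = 0.00814). The two-sided exact permutation test gave p = 0.0286, the smallest possible among 70 arrangements. In MDPs the difference was −1.10 (SE 0.137, limma adjusted p = 3.48e-04), and the effects in the progenitors differed by 0.20 (95% confidence interval −0.21 to 0.61, limma interaction adjusted p = 0.83). None of the other 17 measured DNA methylation factors passed in cMoPs. Among them, Dnmt3a, a de novo methyltransferase gene, differed by −0.47 (limma adjusted p = 0.716) and Tet1, whose product oxidises methylated cytosine, by −0.50 (limma adjusted p = 1). Uhrf1, which recruits DNMT1 to replicated DNA, differed by 0.04.

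The transcripts behind the sort markers gave no call. Kit differed by 0.18 (exact permutation p = 0.314), Csf1r (CD115) by 0.10 (p = 0.371), Ly6c2 by 0.08 (p = 0.2) and Ly6c1 by −0.19 (p = 0.571). Itgam (CD11b), which the gate excludes, was at 5.77, 6.52, 6.10 and 6.08 on control arrays and at 6.53, 6.95, 6.59 and 6.38 on c/chip arrays, a difference of 0.50 (exact permutation p = 0.0571). Ly6c2 lay between 11.97 and 12.18 on all 8 cMoP arrays. The array medians of the cMoPs lay between 3.51 and 3.62, and each array correlated with the others of its group at a mean r of 0.978 to 0.987. Xist, the X-inactivation transcript, was high on control replicates 1 and 2 and on c/chip replicate 1 (10.79 to 10.99) and lay between 4.21 and 5.16 on the other 5 arrays, so both sexes were present in both groups.

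Of the 22180 genes, 25 (0.113%) passed the adjusted p threshold of 0.05, 15 (0.0676%) higher and 10 (0.0451%) lower in c/chip cMoPs. An unadjusted limma p under 0.05 was reached by 1052 genes (4.74%), and the median difference of all genes was −0.01. For all 25 the control arrays lay wholly on one side of the c/chip arrays, which held for 3.87% of all genes (1.94% higher and 1.93% lower). A total of 14 genes were at least 2-fold higher and 6 at least 2-fold lower. The risen genes comprised germline genes (Tex12, Stag3, Hormad2, Slc25a31, Rpl39l and Tex14), secreted factor genes (Clec11a and Mst1), the class I gene H2-Q5, the Schlafen gene Slfn4, and Car3, Tnnt1, Tspoap1 and a pair of unnamed transcripts. The lower genes were, besides Dnmt1, those for proteases (Klk8, Ctsf and Adam19), surface and adhesion proteins (Ncam1 and Gpc3), the ubiquitin ligase Rnf43, and Ephx2, Slc7a2 and Zfyve9. In an alternative chosen after the data had been seen, the cMoPs were limited to the 5 low-Xist arrays (2 control and 3 c/chip), with all MDP arrays kept. Of the 25 genes 7 passed there, namely 1700006J14Rik, Clec11a, Hormad2, Klk8, Rnf43, Rpl39l and Stag3. Without control replicate 1 or control replicate 3, 15 genes passed, and without c/chip replicate 4, 16 passed. In bulk material a change in the number of cells of a type and a change in RNA per cell cannot be told apart.

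**Figure D1:**
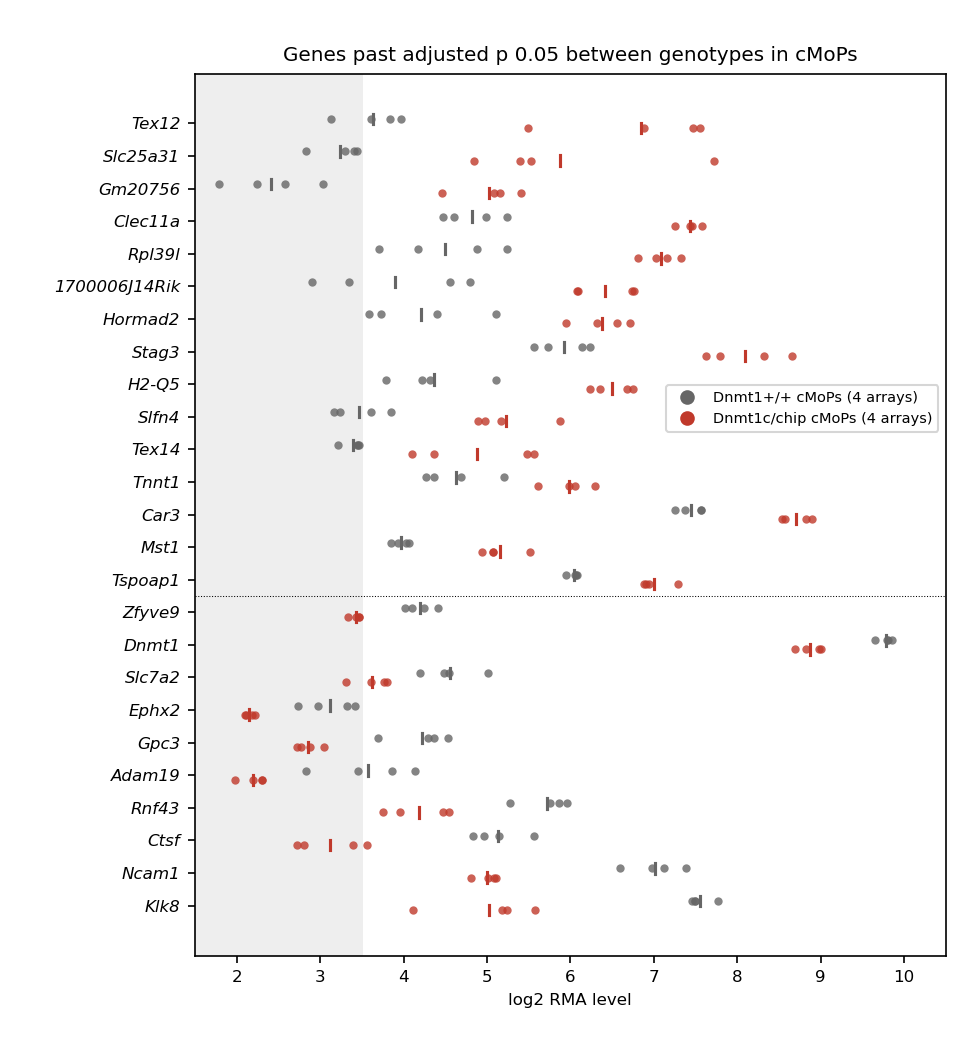
Log2 RMA levels of the 25 genes past adjusted p 0.05, with the 4 control arrays in grey and the 4 c/chip arrays in red, vertical ticks for group means and grey shading below 3.51, the lowest array median of the cMoPs. The 15 genes above the dotted line were higher and the 10 below it lower in c/chip cMoPs, and in each row the colours do not overlap.

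The largest increases were those of the germline genes Tex12 and Slc25a31. Tex12 encodes a central element protein of the synaptonemal complex, which joins homologous chromosomes in meiosis. Its levels were 3.97, 3.83, 3.13 and 3.61 on control arrays and 6.88, 5.49, 7.47 and 7.56 on c/chip arrays. The groups were separate by more than a unit, and c/chip replicate 2 was the lowest of its group. The rise of 3.21 (SE 0.415, limma adjusted p = 0.00247) corresponds to 9.28-fold. Stag3 encodes the meiosis-specific subunit of cohesin. It was at 5.57, 5.74, 6.14 and 6.23 in control and at 7.63, 8.65, 8.32 and 7.79 in c/chip cMoPs, a rise of 2.18 (SE 0.257, limma adjusted p = 0.00102). Stag3 was thus well above the array medians in control cells too. Hormad2, a chromosome axis protein gene that takes part in the surveillance of unpaired meiotic chromosomes, went from 4.40, 5.10, 3.59 and 3.73 to 5.95, 6.71, 6.32 and 6.56. Its rise was 2.18 (SE 0.352, limma adjusted p = 0.0146), and 4 of 16 fits that each left out an array no longer called it (limma adjusted p up to 0.0826). Of these 16 fits, 8 left out an MDP array, which changes the estimate of the spread but not the cMoP difference.

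Slc25a31 encodes the ADP/ATP carrier of germ cell mitochondria. On control arrays it was at 3.44, 2.83, 3.29 and 3.41, all below the array medians, and on c/chip arrays at 5.53, 4.85, 5.39 and 7.72. The c/chip arrays spread widely (SD 1.27), with replicate 4 far above the rest. The rise of 2.63 (SE 0.448, limma adjusted p = 0.0233) lost its call in 4 of 16 fits without 1 array (limma adjusted p up to 0.0883), and it ranged from 2.01 to 2.97 in these fits. Rpl39l, a testis-enriched copy of a ribosomal protein gene, was at 4.88, 3.70, 4.17 and 5.24 in control and at 7.16, 7.03, 6.81 and 7.32 in c/chip cells. It rose by 2.59 (SE 0.284, 6.0-fold, limma adjusted p = 7.51e-04). Near-identical ribosomal protein copies could share its probes, and which copy was measured rests on the platform annotation. Tex14, which is needed for the bridges between germ cells, was at 3.21 to 3.46 in control and at 5.57, 4.10, 4.37 and 5.49 in c/chip cells. Its rise of 1.49 (SE 0.26, limma adjusted p = 0.0262) was lost in 6 of 16 fits without 1 array (limma adjusted p up to 0.113).

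In the list of meiosis and chromosome axis genes, 3 of 23 measured members (13%) rose and 0 fell, with a median of 0.10, and of all genes 0.0676% rose. The germline lists were chosen with these rises known. The mean level of the list lay between 3.50 and 3.65 on control arrays and between 3.97 and 4.12 on c/chip arrays, so the groups did not overlap. This mean includes the 3 called members, and 9 of the 23 members lay below 0, so it does not show a rise across the list. Syce1, another central element gene, was at 3.82, 4.36, 4.12 and 3.75 in control and at 7.06, 5.76, 5.21 and 4.75 in c/chip cells, without overlap, but its difference of 1.68 (SE 0.459) did not pass (limma adjusted p = 0.429) and it was singled out after its values were seen. Tex11 differed by 0.64 and Dmc1, a meiotic recombinase gene, by 0.61, and neither passed. Sycp1, Sycp2, Hormad1, Rec8 and Smc1b, partners of the risen genes in the axis and the synaptonemal complex, differed by −0.19 to 0.13. In the list of other germline genes, 2 of 26 (7.69%) rose and 0 fell, with a median of −0.03. The members that did not pass ranged from −0.52 (Adam2) to 0.80 (Rnf17). Rnf17, a gene of germ cell granules, was at 3.45, 3.58, 2.88 and 3.28 in control and at 3.74, 4.09, 4.80 and 3.77 in c/chip cells, without overlap (limma adjusted p = 0.731). Gtsf1, a piRNA pathway gene, differed by 0.46, and Dazl, Ddx4 and Mael by −0.17, −0.07 and −0.09. In MDPs, 10 of the 15 genes that rose in cMoPs passed as well, among them Tex12 (2.56), Slc25a31 (3.08), Hormad2 (1.59), Stag3 (1.20) and Rpl39l (1.67), whereas Tex14 (0.80, limma adjusted p = 0.136) did not.

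Members that moved together are shown with their promoters. The 250 bases before the RefSeq start (GRCm38.p6) of 4 risen germline genes and of Klk8, the gene with the largest decrease, are printed with every CpG in capitals. Tex12 lies on the minus strand at chr9:50561269-50561518, Stag3 on the plus strand at chr5:138280259-138280508, Hormad2 on the minus strand at chr11:4441083-4441332, Slc25a31 on the plus strand at chr3:40708621-40708870 and Klk8 on the plus strand at chr7:43797327-43797576.
Tex12: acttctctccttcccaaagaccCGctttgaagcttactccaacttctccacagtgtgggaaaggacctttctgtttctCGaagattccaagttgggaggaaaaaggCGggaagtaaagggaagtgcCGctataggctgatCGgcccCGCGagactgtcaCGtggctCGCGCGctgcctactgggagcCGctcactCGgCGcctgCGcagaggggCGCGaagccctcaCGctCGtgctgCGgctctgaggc
Stag3: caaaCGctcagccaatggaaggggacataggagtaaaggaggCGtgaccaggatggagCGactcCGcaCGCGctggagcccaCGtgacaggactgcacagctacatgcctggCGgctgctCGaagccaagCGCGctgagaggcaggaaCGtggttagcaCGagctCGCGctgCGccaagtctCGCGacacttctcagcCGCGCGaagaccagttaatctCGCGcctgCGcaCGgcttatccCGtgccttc
Hormad2: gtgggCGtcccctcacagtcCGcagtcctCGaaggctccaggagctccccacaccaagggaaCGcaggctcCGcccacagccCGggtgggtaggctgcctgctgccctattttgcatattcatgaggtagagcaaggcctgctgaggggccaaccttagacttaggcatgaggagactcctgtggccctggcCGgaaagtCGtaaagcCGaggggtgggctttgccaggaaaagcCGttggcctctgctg
Slc25a31: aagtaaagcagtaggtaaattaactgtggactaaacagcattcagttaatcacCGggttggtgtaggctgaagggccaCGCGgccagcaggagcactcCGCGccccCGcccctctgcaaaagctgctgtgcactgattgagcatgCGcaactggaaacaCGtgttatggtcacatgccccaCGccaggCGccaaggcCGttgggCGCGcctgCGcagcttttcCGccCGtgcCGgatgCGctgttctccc
Klk8: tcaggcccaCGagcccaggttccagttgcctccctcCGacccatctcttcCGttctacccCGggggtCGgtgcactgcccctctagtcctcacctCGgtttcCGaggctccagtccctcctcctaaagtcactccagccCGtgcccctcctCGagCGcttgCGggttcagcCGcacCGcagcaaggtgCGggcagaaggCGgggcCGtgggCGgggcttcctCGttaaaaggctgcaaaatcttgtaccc

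Promoter windows existed for 19 of the 25 genes and for 16918 of the genes tested. All genes had a median of 10 CpGs, the 12 risen genes with a window 8.5 and the 7 lower ones 8. The called germline list members (n = 5) had a median of 18, with 26 in Stag3, 20 in Tex12, 18 in Slc25a31, 12 in Rpl39l and 10 in Hormad2, and the 36 germline list members that were not called had a median of 13. Tex14 had 17 CpGs. An observed over expected CpG ratio of at least 0.6 was found in 4 of the 5, in 18 of the 36 and in 45.7% of all windows. CpG-rich windows were also seen among lower genes, with 25 in Gpc3, 18 in Klk8 and 17 in Ctsf, whereas Clec11a had 4 and Slfn4 3. These are descriptions of sequence, and methylation was not analysed here.

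Motifs were searched in the same windows on both strands. CACGTG, the E-box core, occurred in Tex12, Stag3 and Slc25a31, in 3 of the 5 called germline list members, in 11 of the 36 others and in 6.89% of all windows. The core was also in 2 of the 7 windows of lower genes (Ctsf and Adam19), and thus in 5 of the 19. Its longer form TCACGTGA, which contains CACGTG, was in 0 of these germline windows and in 1.05% of all. TTTCGCGC, an E2F-type sequence, was in 0 of the 19 and in 0.34% of all. The short motif GGGAA occurred in 7 of the 19 windows and in 56.81% of all. The TATA box sequence TATAAA occurred in 2 of the 19 and in 11.93% of all.

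**Figure D2:**
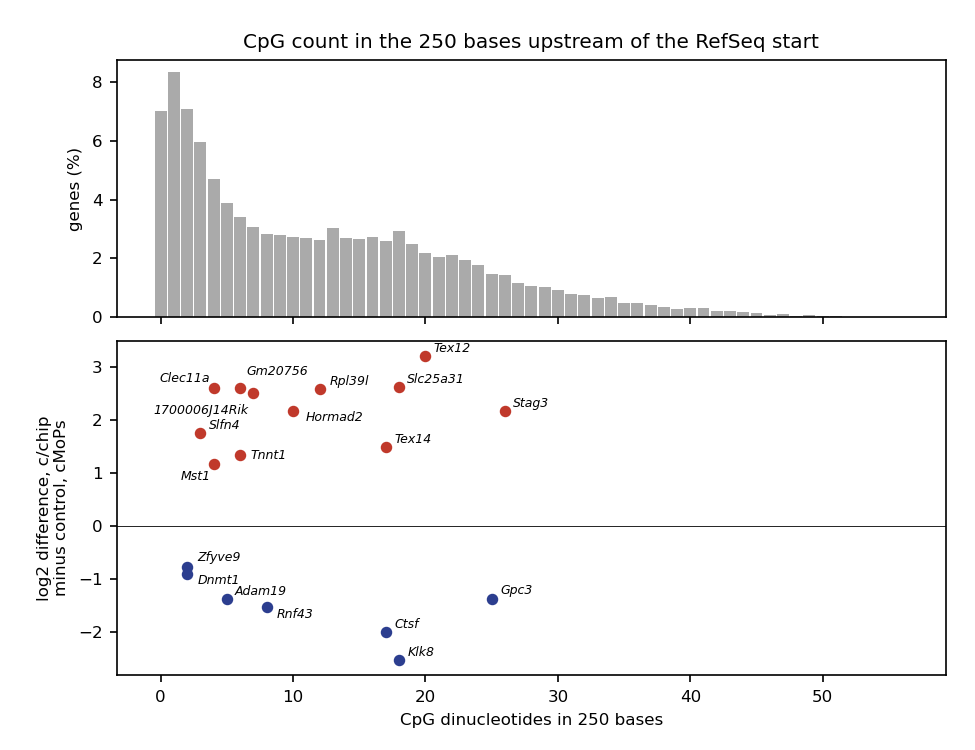
Top, share of the 16918 genes with a promoter window (percent) by the number of CpGs in the 250 bases before the start; bottom, log2 difference between c/chip and control cMoPs of the 19 called genes with a window against the same CpG count, red for higher and blue for lower. Higher and lower genes both span low and high CpG counts, from 3 to 26 and from 2 to 25.

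Of the secreted factors, Clec11a had the smallest adjusted p of all genes. It encodes a C-type lectin growth factor that acts on haematopoietic and bone progenitors. Levels of 4.60, 4.47, 4.99 and 5.24 in control stood against 7.57, 7.46, 7.25 and 7.43 in c/chip cMoPs. The rise of 2.60 (SE 0.203, 6.08-fold, limma adjusted p = 1.02e-05) passed under each of the 31 alternatives tried, at 2.27 to 2.74. It was the 1 member that passed of 22 growth factor and receptor genes, whose median was 0.14, and of all genes 0.0676% rose. Il1r1 (0.72) and Il3ra (0.44) did not pass. Mst1, the gene of macrophage-stimulating protein, was at 3.93, 4.03, 3.85 and 4.07 in control and at 5.07, 5.08, 4.95 and 5.51 in c/chip cells. It rose by 1.18 (SE 0.162, limma adjusted p = 0.00373).

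H2-Q5 belongs to the Qa region of class I genes, whose products present or resemble antigen-presenting molecules. It was at 4.32, 4.22, 3.79 and 5.11 in control and at 6.68, 6.35, 6.23 and 6.75 in c/chip cMoPs, a rise of 2.14 (SE 0.278, limma adjusted p = 0.00247). A second probe set of the gene differed by 0.65 and did not pass, and near-identical Qa genes may share probes, so which gene rose is uncertain. It was the 1 of 20 class I pathway genes past the threshold, and of all genes 0.0676% rose. The list median was 0.31, with 18 of 20 members above 0, and its mean level lay between 6.29 and 6.63 on control and between 6.85 and 6.95 on c/chip arrays without overlap. Of all 22180 genes, 10479 lay above 0. H2-Q4 (1.15), H2-Q10 (1.01) and H2-K1 (0.49, limma adjusted p = 0.196) did not pass, and B2m, the shared light chain, differed by 0.07. None of 10 class II genes passed, with H2-Ab1 at 0.95. The interferon response list gave 0 calls among 30 genes and a median of 0.01.

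Slfn4, a Schlafen gene of myeloid cells, was at 3.85, 3.17, 3.23 and 3.61 in control and at 5.17, 5.88, 4.97 and 4.89 in c/chip cells. The rise was 1.76 (SE 0.25, limma adjusted p = 0.00438), and none of the other 7 Schlafen genes passed, with Slfn8 at 0.72 and Slfn2 at −0.75. Car3, a cytosolic carbonic anhydrase gene of muscle and fat, went from 7.25, 7.57, 7.57 and 7.38 to 8.53, 8.58, 8.89 and 8.82. This rise of 1.27 (SE 0.228, limma adjusted p = 0.033) was lost in 10 of 16 fits without 1 array (limma adjusted p up to 0.168), among them every fit without a cMoP array. A second probe set of Car3 differed by 0.52 and did not pass. Car9, another of the 14 carbonic anhydrase genes, was 1.55 higher (limma adjusted p = 0.243), and it passed only without c/chip replicate 1 (2.04, limma adjusted p = 0.0018) among the fits without 1 array. Tnnt1, the troponin T of slow muscle, rose by 1.35 (SE 0.208, limma adjusted p = 0.00891) from 4.27 to 5.21 in control to 5.62 to 6.29 in c/chip cells, and 3 of 16 fits with an array left out did not call it (limma adjusted p up to 0.0583). Tspoap1, which encodes a binding partner of the mitochondrial translocator protein, rose by 0.96 (SE 0.169, limma adjusted p = 0.0262) from a range of 5.95 to 6.08 to one of 6.88 to 7.29. Of the fits with an array left out, 8 of 16 did not call Tspoap1 (limma adjusted p up to 0.143), namely every fit without a cMoP array. Nor did 6 of 15 other alternatives call it. The unnamed transcripts 1700006J14Rik and Gm20756 rose by 2.52 (SE 0.383) and 2.62 (SE 0.358).

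Klk8, a secreted serine protease gene of the kallikrein cluster, had the largest decrease. Its levels were 7.78, 7.46, 7.5 and 7.49 in control and 4.12, 5.58, 5.24 and 5.18 in c/chip cMoPs, with c/chip replicate 1 the lowest. It fell by 2.53 (SE 0.288, 5.76-fold lower, limma adjusted p = 8.41e-04). Of 23 kallikrein genes it was the 1 past the threshold, and of all genes 0.0451% fell. The list median was −0.06. Ctsf, a lysosomal cysteine protease gene, was at 4.97, 4.83, 5.15 and 5.57 in control and at 3.39, 2.72, 3.56 and 2.81 in c/chip cells. It fell by 2.01 (SE 0.277, limma adjusted p = 0.00373), to a c/chip mean of 3.12 that lies below the array medians. None of the other 14 cathepsin genes passed. Adam19, a membrane metalloprotease gene, was at 3.87, 3.46, 4.14 and 2.83 in control and at 1.98 to 2.30 in c/chip cells. Its fall of 1.38 (SE 0.236, limma adjusted p = 0.0233) lies near and below the array medians, was lost in 7 of 16 fits without 1 array (limma adjusted p up to 0.107), and a second probe set differed by −0.21 and did not pass.

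Ncam1 encodes a homophilic adhesion molecule best known from neurons and NK cells. It was at 7.12, 7.38, 6.60 and 6.97 in control and at 5.01, 5.11, 4.81 and 5.08 in c/chip cMoPs, far apart with a narrow spread. The fall was 2.02 (SE 0.285, 4.05-fold lower, limma adjusted p = 0.00438). Gpc3, an X-linked glypican gene, was at 4.36, 4.53, 4.30 and 3.70 in control and at 2.87, 2.77, 3.05 and 2.72 in c/chip cells. It fell by 1.37 (SE 0.232, limma adjusted p = 0.0233), and 6 of the 16 fits that left out an array no longer called it (limma adjusted p up to 0.107). With Adam19, these were the 3 of 24 adhesion and matrix genes that fell, and 0 rose, and of all genes 0.0451% fell. The list was chosen with earlier results of these data known. Pecam1 (0.77, limma adjusted p = 0.151) and the glypican gene Gpc2 (0.76, limma adjusted p = 0.716) lay higher in every c/chip array and did not pass.

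Rnf43 encodes a ubiquitin ligase that removes Frizzled receptors from the membrane and is itself a Wnt target. Levels of 5.27, 5.76, 5.87 and 5.96 in control stood against 4.47, 3.75, 4.55 and 3.96 in c/chip cMoPs. It fell by 1.53 (SE 0.222, limma adjusted p = 0.00528) and was the 1 of 19 Wnt feedback and receptor genes past the threshold, where 0.0451% of all genes fell. Axin2 (−0.59, limma adjusted p = 0.588) and Lgr4 (−0.62, limma adjusted p = 0.814) lay lower in every c/chip array, and Znrf3, the paralog of Rnf43, differed by −0.17. Ephx2, the soluble epoxide hydrolase gene, Slc7a2, a cationic amino acid transporter gene, and Zfyve9, whose product anchors SMAD proteins at endosomes, fell by 0.96, 0.94 and 0.77. Their calls were lost in 7, 10 and 6 of 16 fits without 1 array (limma adjusted p up to 0.108, 0.175 and 0.115), and the c/chip means of Ephx2 and Zfyve9 lay below the array medians. The control levels of Ephx2 (3.33, 2.74, 3.41 and 2.98) lay below these medians too.

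**Figure D3:**
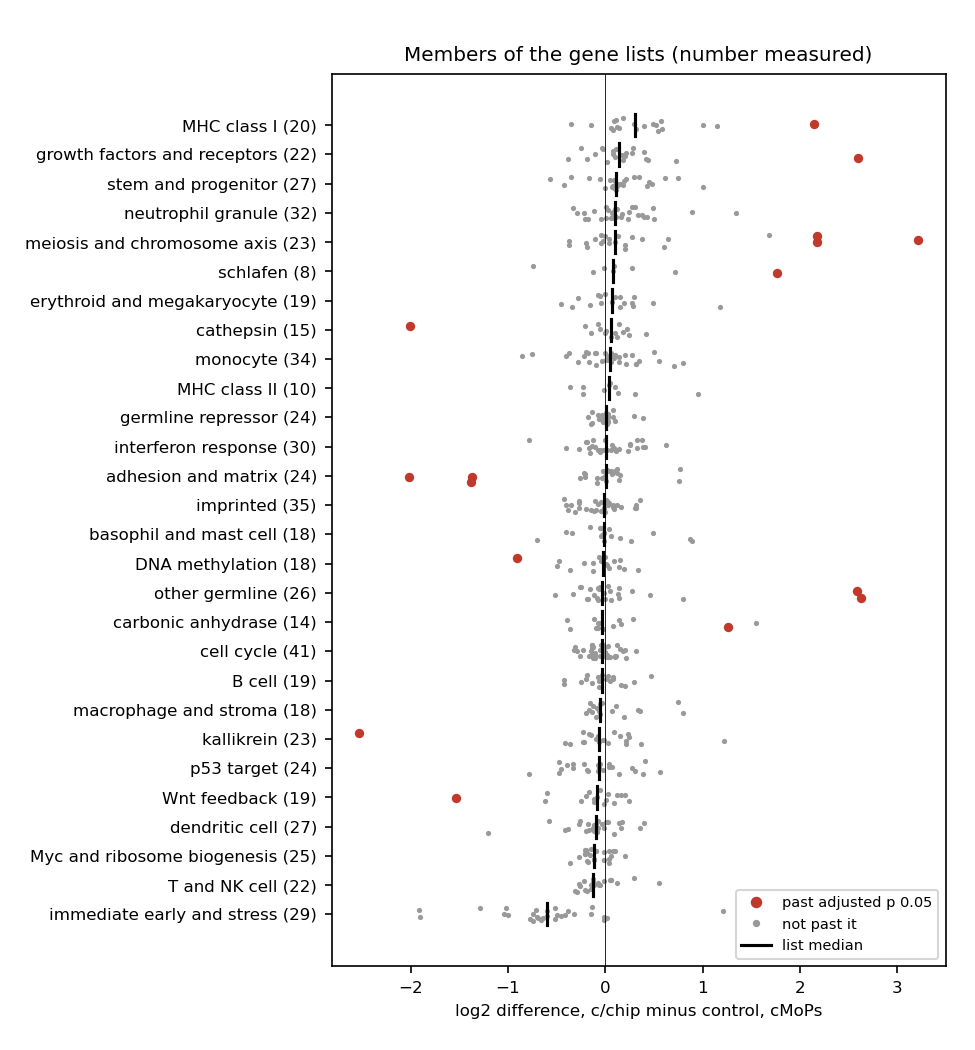
Log2 difference between c/chip and control cMoPs of each measured member of the 28 gene lists, with the number of measured members in parentheses, red for members past adjusted p 0.05, grey for the others (vertical jitter only) and a black tick for the list median. The red points are few in every list, and the list medians lie between −0.60 and 0.31.

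Close to the threshold lay genes whose arrays did not overlap but whose adjusted p was above 0.05. Cryab, a small heat shock protein gene, was at 7.51, 6.72, 4.92 and 7.37 in control and at 9.19, 9.33, 9.43 and 9.13 in c/chip cMoPs. The difference of 2.64 (SE 0.504, limma adjusted p = 0.058) was as large as that of many called genes, and control replicate 3 set most of the spread. Flt3, a cytokine receptor gene of dendritic cell progenitors, was at 5.86, 6.18, 6.66 and 6.44 in control and at 5.42, 5.40, 4.85 and 4.66 in c/chip cells, a difference of −1.20 (limma adjusted p = 0.0712). Cd47, the gene of a signal against phagocytosis, differed by 0.83 (limma adjusted p = 0.0773). Fzd8, a Wnt receptor gene, differed by −1.25 (limma adjusted p = 0.0515) and Bex4 by −2.12 (limma adjusted p = 0.0717). The others were 4930455G09Rik (1.54), Dync2li1 (1.05), Eid2 (−1.35), Nkain1 (−0.78) and Morc4 (−0.68), with limma adjusted p of 0.0633 to 0.0896.

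Markers of the sorted cells and of other blood lineages gave 0 calls. Of 34 monocyte genes the median was 0.05, with Cd68, a lysosomal protein gene, at 0.80 (limma adjusted p = 0.151) and the fibronectin gene Fn1 at −0.86 (limma adjusted p = 0.632). The mean level of the monocyte list was 7.31 to 7.49 on control and 7.36 to 7.49 on c/chip arrays. Of 32 neutrophil granule genes 25 lay above 0, with a median of 0.10 and overlapping mean levels (6.99 to 7.34 and 7.0 to 7.66). Of 27 stem and progenitor genes 22 lay above 0, with a median of 0.11 and mean levels of 5.42 to 5.65 and 5.69 to 5.77 that did not overlap. For comparison, 10479 of all 22180 genes lay above 0 and 11695 below. Members of a list can vary together by array, so these counts are descriptions and not tests. Among these, Erg (0.62, limma adjusted p = 0.0967), Hoxa9 (1.01, limma adjusted p = 0.429) and Hoxa7 (0.75, limma adjusted p = 0.332), transcription factor genes of early progenitors, did not pass. Of 27 dendritic cell genes 19 lay below 0, with a median of −0.09, and Ccr7 differed by −0.58 and Cd24a by 0.40.

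Lists for further lineages gave 0 calls. The median differences were 0.07 over 19 erythroid and megakaryocyte genes, −0.04 over 19 B cell genes, −0.12 over 22 T and NK cell genes, −0.02 over 18 basophil and mast cell genes and −0.06 over 18 macrophage and stroma genes. Selp (1.18), Siglecf (0.88), Hmox1 (0.80) and Cd28 (0.56) had the largest differences among the members of their lists above the median level, and none passed. The mean level of the macrophage and stroma list was 3.20 to 3.21 on control and 3.24 to 3.34 on c/chip arrays, without overlap. Of its 18 members 11 lay below 0 and 14 below the array medians, whereas Hmox1 and Vcam1 (0.75) were higher and did not pass. List means without overlap were also seen for adhesion and matrix and Wnt feedback genes (lower) and for growth factor and receptor genes (higher). These means include the called members of the lists, so they do not show a shift across a list. The list medians were 0.005, −0.087 and 0.141. The levels of the B cell list were 3.57 to 3.72 on control and 3.51 to 3.70 on c/chip arrays, and those of the T and NK cell list 3.05 to 3.21 and 2.99 to 3.12. The part of other lineages in the called genes was not tested.

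None of 35 imprinted genes passed, with a median of −0.01 and a range of −0.42 to 0.35. Kcnq1ot1, an imprinted antisense RNA, differed by 0.35, and Peg12 and Peg13 by −0.41 and −0.35. In the list of chromatin repressors of germline genes 0 of 24 passed, with Ehmt2, a histone H3 lysine methyltransferase gene, at 0.39 and Atf7ip at 0.29. The cell cycle list (41 genes) had a median of −0.04, p53 targets (24 genes) −0.07 and Myc and ribosome biogenesis genes (25 genes) −0.11, each with 0 calls. Cdkn1a, the cell cycle inhibitor p21, differed by −0.78 (SE 0.385). By contrast with these, 27 of 29 immediate early and stress genes lay below 0 (11695 of all 22180 genes did), with a median of −0.60 and 0 calls. Their mean level was 7.75, 7.22, 6.14 and 6.96 on control and 7.09, 7.16, 5.87 and 5.57 on c/chip arrays. In both genotypes arrays 1 and 2 were above arrays 3 and 4, and c/chip minus control was −0.36 over arrays 1 and 2 and −0.83 over arrays 3 and 4. The heat shock protein genes Hspa1a (−1.90) and Hspa1b (−1.91) had the largest differences. With this level as a covariate, 18 genes passed, 17 of them among the 25.

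All 25 genes had the same sign in MDPs, where 14 of them also passed (1.95% of all genes passed in MDPs). None of the 25 passed the interaction test between genotype and progenitor, with limma adjusted p of 0.10 to 0.923. They had been chosen by their difference in cMoPs, which by itself favours larger values there. Ncam1 had the lowest interaction p. It was at 4.75, 4.76, 3.47 and 4.08 in control MDPs and at 4.88, 4.27, 3.57 and 4.07 in c/chip MDPs, a difference of −0.07 (95% confidence interval −0.67 to 0.53), and the cMoP effect was 1.95 more negative (95% confidence interval −2.80 to −1.10, limma interaction adjusted p = 0.1). Adam19 (−0.03 in MDPs), Slc7a2 (−0.05), Zfyve9 (−0.17), Ephx2 (−0.30) and Rnf43 (−0.38) did not pass in MDPs either. In control MDPs Rnf43 (4.16 ± 0.33, SD, n = 4) and Adam19 (2.77 ± 0.22, SD, n = 4) were at lower levels than in control cMoPs (5.71 ± 0.31 and 3.57 ± 0.57, SD, n = 4). Klk8, by contrast, fell by 2.24 in MDPs and Gpc3 by 1.19, and the interaction values were −0.29 and −0.18.

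**Figure D4:**
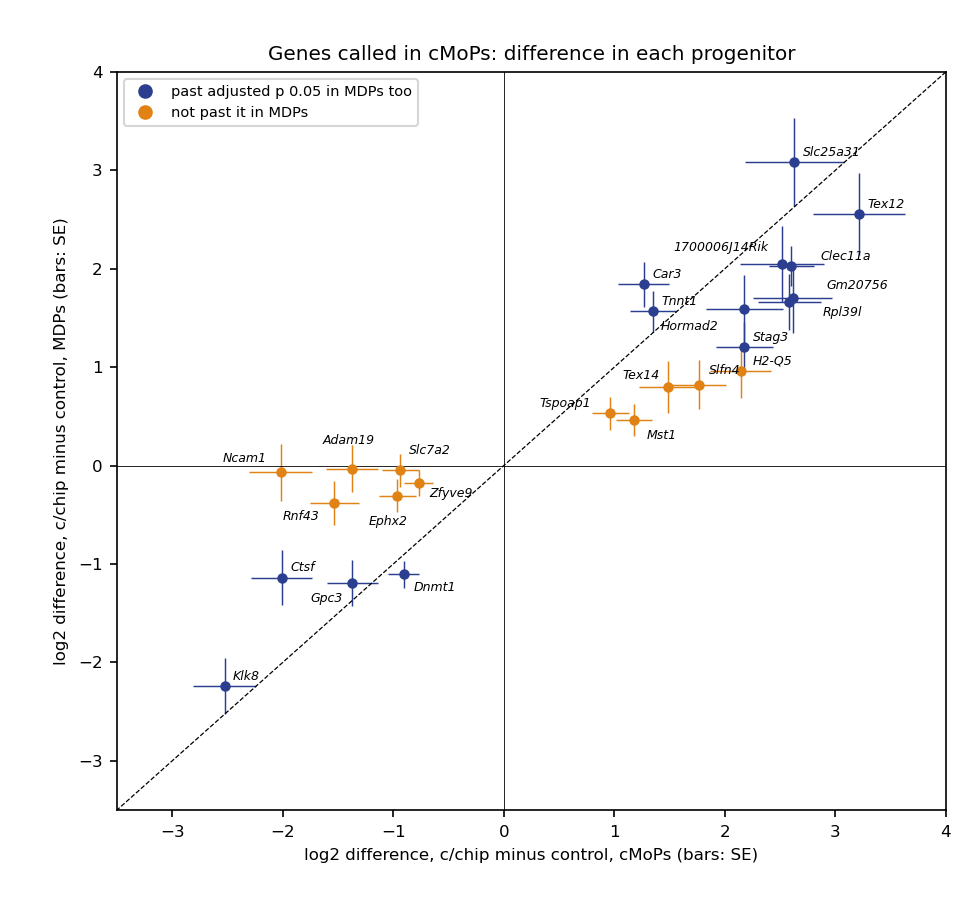
Log2 difference between c/chip and control of the 25 genes called in cMoPs, in cMoPs (horizontal) and in MDPs (vertical), with bars for the SE, blue for genes past adjusted p 0.05 in MDPs too and orange for the others; the dashed line marks equal differences. Ncam1 lies at −2.02 and −0.07, and Klk8 near the line at −2.53 and −2.24.

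Across all genes 13 (0.0586%) passed the interaction test, and none of these was called in cMoPs. This count was 5 without control cMoP replicate 1, c/chip cMoP replicate 2 or c/chip cMoP replicate 4, 7 without control cMoP replicate 4, 8 without c/chip cMoP replicate 1, 26 without c/chip MDP replicate 4 and 33 without c/chip MDP replicate 3. Those with the largest values were Dntt, an enzyme gene of lymphoid progenitors (4.61), the platelet glycoprotein gene Gp5 (−2.64), Cmah (2.56), the histamine-forming enzyme gene Hdc (−2.39), Ms4a3 (−1.97) and Cd300c (1.82). Of the 16 fits with an array left out, 6 did not call Hdc (limma adjusted p up to 0.0655), 4 did not call Cmah and 4 did not call Cd300c (up to 0.0616 each). In cMoPs the genotype differences of the 6 genes were −0.07, −0.16, 0.07, −0.34, 0.10 and −0.27. Of these, Dntt and Gp5 lay below the array medians in the cMoPs of both genotypes.

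Called genes lay on 14 chromosomes, with 6 on chromosome 11 (of 1649 tested there), 4 on chromosome 9 (of 1254, Dnmt1 among the 4) and 3 on chromosome 7 (of 1948). Of all genes tested 0.113% were called, and clustering by chromosome was not tested. On chromosome 11 Tex14, Rnf43 and Tspoap1 lie close to each other in the RefSeq gene order of GRCm38.p6, with 3 measured genes between the first pair and 2 between the second. Tex14 and Tspoap1 rose and Rnf43 fell. Mpo, the myeloperoxidase gene next to Tspoap1, differed by 0.07. On chromosome 9 Ncam1 and Tex12 are separated by 4 measured genes and moved in opposite directions, and Cryab lies 8 measured genes beyond Tex12. On chromosome 7 Klk8 and Clec11a are separated by 22 measured genes and moved in opposite directions too. Among the 25 genes on each side of Tex14, Tex12 and Clec11a, leaving out called genes, 1 of 48, 1 of 49 and 2 of 49 had no overlap between the genotypes, against 3.87% of all genes.

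The direct neighbours of the 25 genes gave 0 calls among 50. Their median absolute difference was 0.14, against 0.125 for all genes. Of the 50, 4 had no overlap between the genotypes, against 3.87% of all genes. These were H2-Q4 beside H2-Q5, Gpc2 and Map11 (0.36) beside Stag3, and Adam2 (−0.52) beside Ephx2. Around Dnmt1 itself, the 10 measured genes on each side differed by −0.27 to 0.40 with a median of 0.00.

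**Figure D5:**
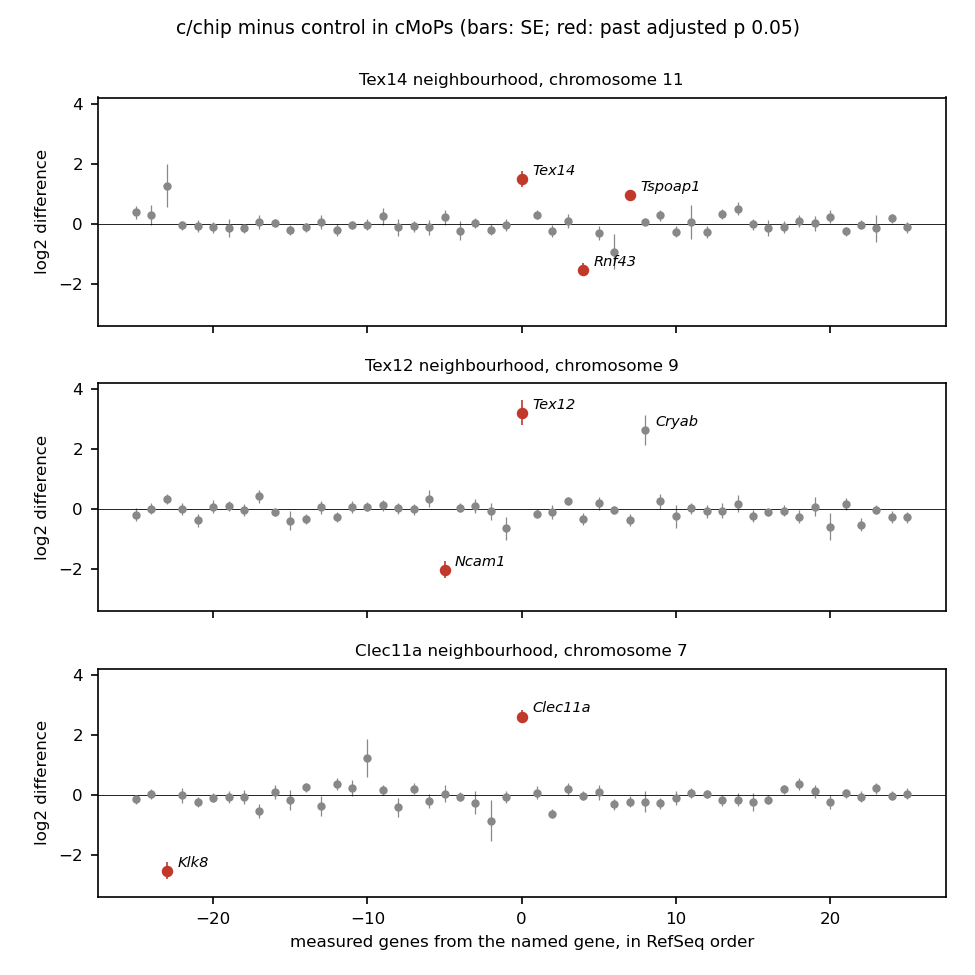
Log2 difference between c/chip and control cMoPs of the measured genes within 25 places of Tex14, Tex12 and Clec11a in the RefSeq gene order, with bars for the SE and red for genes past adjusted p 0.05. The 3 centre genes, Ncam1, Klk8, Rnf43 and the uncalled Cryab (2.64) lie farther from 0 than any other gene shown, whereas the called Tspoap1 (0.96) lies closer to 0 than the uncalled Mir5110 (1.26) and Klk1b22 (1.22).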

How the data were processed

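Total RNA (300 ng) of sorted progenitors was amplified from the 3′ end and hybridised to Affymetrix arrays, per the labels' protocols. The deposited values are log2 levels per probe set made by the authors with RMA, and affy and limma are named beside it, per the submitters' processing notes. Of 41345 probe sets, 23521 had 1 symbol in the platform annotation, 1820 several and 16004 none, and 23328 of the first matched RefSeq. The probe set with the highest mean was kept for each of 22180 genes. Array medians were 3.43 to 3.62, and 4 arrays per group limit the precision. A second deposited table with 16 sample columns that match no label was not used here.

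Group means of all 16 arrays were fitted with limma 3.58.1 (R 4.3.3) and empirical Bayes moderation, with Benjamini-Hochberg adjustment over all genes and a threshold of 0.05. Pooling left 12 residual degrees of freedom. Dnmt1 and the sort markers also had exact permutation tests (scipy 1.17.1). In data simulated for the cMoP comparison over 22180 genes, of which 200 were changed, 2% of changes of 0.5, 64% of changes of 1 and 100% of changes of 2 or 3 were recovered. The simulated noise was independent between genes and arrays, and more genes were changed than the 25 called in the data. These shares may therefore overstate recovery in the data. Promoter windows were the first 250 bases of RefSeq windows, 1 per gene. Where a gene had several windows, the one farthest upstream on its strand was kept. Among the called genes this applied to Dnmt1 and Adam19 (3 windows each) and Rnf43 (2), whose CpG counts depend on that choice.

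The members and lists were chosen with earlier results of these data known. Named genes were Dnmt1 and the sort markers, every called gene, the 10 uncalled genes without overlap of lowest adjusted p, up to 6 interaction genes, and neighbours of called genes. List members past the threshold were named too. So were up to 3 members per list with the largest absolute difference above the median level, with called members counted among the 3. Syce1, Tex11, Dmc1, Sycp1, Sycp2, Hormad1, Rec8, Smc1b, Gtsf1, Mir5110, Dazl, Ddx4, Mael, Uhrf1, B2m, H2-K1, Slfn8, Axin2, Lgr4 and Znrf3 fall outside this rule and were named after their values were seen. Alternatives changed the probe set rule, the filter, the normalization, the moderation, the arrays used and the covariates.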

Additional observations from a re-analysis of the deposited data

Results flagged for a closer look

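Of 288 groups of 4 arrays tested with Dixon's criterion, 19 (6.6%) held an array far from the other 3, and chance flags about 1 in 20 groups. Among the called genes these were Klk8 in control replicate 1 (7.78, others 7.46 to 7.5), Tex14 in control replicate 3 (3.21, others 3.44 to 3.46) and Tspoap1 in c/chip replicate 3 (7.29, others 6.88 to 6.94). Among sort markers they were Csf1r in control replicate 3 (9.41, others 9.15 to 9.17) and Ly6c2 in control replicate 4 (11.97, others 12.05 to 12.07).

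Control replicate 1 stood apart for Hmox1 (4.9) and the dendritic cell list mean (4.95), and control replicate 4 for Kdm1a (8.26). Control replicate 2 stood apart for Gbp3 (5.91), Car2 (2.45), Cd47 (9.39) and the Myc and ribosome biogenesis list mean (8.36). C/chip replicate 1 stood apart for Slfnl1 (4.24), Selp (6.12) and Hspa1a (4.64). C/chip replicate 2 stood apart for E2f1 (6.16), Il3ra (8.64) and Cd47 (10.04), and c/chip replicate 3 for the class I list mean (6.85).

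The genotype effect differed between cMoPs and MDPs by the limma interaction test for 7 named genes that were not called in cMoPs. The effect in cMoPs minus that in MDPs was 4.61 for Dntt (adjusted p = 0.0042), −2.64 for Gp5 (adjusted p = 0.0067), 2.56 for Cmah (adjusted p = 0.0188), −2.39 for Hdc (adjusted p = 0.0221), −1.97 for Ms4a3 (adjusted p = 0.0067), 1.82 for Cd300c (adjusted p = 0.0188) and −1.09 for Srm (adjusted p = 0.0273). With an array left out, Hdc no longer passed in 6 of 16 fits, and Cmah and Cd300c in 4 each, with limma adjusted p up to 0.0655 for Hdc and 0.0616 for the others.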

How the results depend on the processing

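None of the 25 called genes changed direction under any of the 31 alternatives, and 6 of them (1700006J14Rik, Clec11a, Klk8, Rnf43, Rpl39l and Stag3) passed under all of them. Where leaving out 1 array lost a call, the array was a cMoP array. Car3 and Slc7a2 also lost their calls without some of the MDP arrays. Array weights gave 38 higher and 22 lower genes, with all 25 shared. Fewer genes were lower when only genes above the median level entered (6), at a minimum of 2-fold (6), or with the immediate early level as a covariate (6). With the cMoPs limited to low-Xist arrays, chosen after seeing the data, 5 genes were higher and 2 lower, and Dnmt1 differed by −0.938 (limma adjusted p = 0.238). All MDP arrays stayed in that fit whatever their Xist level, and 0 genes passed its limma interaction test. At 2-fold Dnmt1 (−0.906) was left out by its size. Leaving out 1 array gave 10 to 16 higher and 5 to 12 lower genes, 5 to 33 interaction genes and Dnmt1 at −0.949 to −0.846. The cMoP arrays alone gave 26 genes, 18 of them shared. The deviations of same-numbered arrays from their group means correlated at r of 0.2, 0.216, 0.211 and 0.054. Controls 1 and 2 correlated best with c/chip 1 and 2, and control 3 best with c/chip 4 (0.265). The other different-numbered pairs gave r of −0.287 to 0.08. Arrays thus shared some structure by number, in which 3 and 4 were not told apart. The fit with a replicate block gave 26 genes, 21 of them shared. A term for numbers 1 and 2 against 3 and 4, also added after seeing the data, gave 29. The cause of these shifts was not tested.

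Directions reversed for uncalled genes only. Low-Xist arrays gave Ly6c1 at 0.282 and Gp5 at 0.154, the immediate early covariate gave Cxcl10 at 0.155, Gfi1b at 0.020 and Dntt at 0.218, the Y-linked covariate gave Dntt at 0.008 and array weights gave Car2 at −0.050. Leaving out 1 array gave ranges of −0.033 to 0.214 for Slfnl1, −0.3 to 0.544 for Car2, −0.326 to 0.012 for Cd79b, −0.047 to 0.214 for Vpreb3, −0.191 to 0.027 for Dntt and −0.109 to 0.215 for Cmah. Signal near background limits the 4 risen genes whose control means and the 5 lower genes whose c/chip means lay below the array medians. Among these lower genes, the control mean of Ephx2 lay below them too.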
